A study of Mus musculus with 23 samples.

Results

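Protocadherins are cell-surface adhesion proteins of neurons and other cells, and 53 rows of a deposited table of 31395 rows carry a gene name that starts with Pcdh. Each row is 1 SystematicName (a transcript identifier) of a 1-colour Agilent mouse array, and the 53 rows belong to 47 gene names. They comprise 18 rows of 12 non-clustered genes, 7 rows of the alpha cluster (Pcdha), 22 of the beta cluster (Pcdhb) and 6 of the gamma cluster (Pcdhg). Another 4 probes are described as protocadherins under other gene names and are not included.

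Bulk RNA was measured in 3 brain regions, the frontal cortex (FC), the striatum (ST) and the hypothalamus (HT), and the female C57BL/6 mice were 5 weeks old when the experiment began. The mice of the SC group ate standard chow for 8 weeks, and the mice of the CM group chose freely between the same chow and a chocolate mixture for those 8 weeks. All groups went through an 11-day battery of behavioural tests. In its limited-access test the chow mice were also given the chocolate mixture for a short time each day. The free choice of the CM mice was suspended for part of the battery and restored before the animals were killed. The chow mice are L52, L54, L56 and L58 and the CM mice are O52, O54, O56 and O58, and the 3 regions came from the same 8 mice. All groups have 4 arrays except FC of the CM mice, which has 3 (O54, O56 and O58). The FC array of O52 is not analysed here. The regional comparisons ask which protocadherins differ between regions, and the diet comparisons ask which differ between CM and chow within a region.

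Clustered protocadherins are made from variable exons that each have their own promoter, and in the alpha and gamma clusters every variable exon is spliced to shared constant exons. Each neuron expresses its own combination of isoforms, which bind the same isoform on a facing membrane and serve self-avoidance of dendrites and axons, while the C-type isoforms at the end of the alpha and gamma clusters are expressed more broadly. Non-clustered protocadherins, most of them of the delta family, are expressed in restricted brain regions and cell layers, and they act in axon growth, cell sorting and synapse formation.

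Values are normalised log2 intensities, called levels here, so a difference of 1 is a 2-fold difference. A member is called when its Benjamini-Hochberg adjusted p from limma, over all 31395 rows, is under 0.05. The study's thresholds are 2-fold and adjusted p under 0.01 for comparisons of FC and ST and the looser 1.5-fold and adjusted p under 0.05 for comparisons with HT, so counts at these thresholds cannot be compared between them. The study set these for diet, and here they were applied to the regional comparisons too. The fits weight the arrays, so a fitted log2 difference departs slightly from the difference of plain group means. Errors after ± are standard errors of the fitted difference.

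The region labels were checked against lists of marker genes, whose rows were averaged on each array. Frontal cortex markers (8 rows) lay between 9.79 and 10.67 in FC, between 6.95 and 9.89 in ST and between 6.69 and 7.60 in HT. Striatum markers (10 rows) lay between 13.46 and 14.35 in ST, with no FC or HT array above 11.93. Hypothalamus markers (12 rows) lay between 9.56 and 12.51 in HT, between 7.99 and 9.09 in FC and between 7.85 and 10.92 in ST. The highest ST array, that of L52, lay above the HT arrays of L52 (10.62), L54 (9.56), O52 (10.76) and O58 (10.32). In this list Pmch and Hcrt were higher in HT than in FC on chow, by 8.15 and 7.59. Npy and Crh were lower, by -2.92 and -0.70. Thalamus markers (11 rows) were also high in HT, between 9.56 and 10.71, with no FC or ST array above 8.58. The arrays called HT thus carried markers of both structures, and while the protocol names the hypothalamus, the source and tissue labels of these arrays call the region thalamic and their titles shorten it to TH.

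Arrays stood apart in 4 dissections. The FC array of chow mouse L54 had a mean of 11.74 over the olfactory bulb markers (4 rows), against 6.04 to 7.03 on the other 22 arrays. The ST array of chow mouse L52 had 10.92 over the hypothalamus markers, against 7.85 to 9.46 on the other ST arrays. The ST array of CM mouse O58 had 13.11 over the choroid plexus markers (5 rows), against 6.40 to 8.88 elsewhere. Counts with these 3 arrays left out together are given beside the main counts. The ST array of chow mouse L54 had 9.89 over the frontal cortex markers, against 9.79 on the FC array of that mouse and 6.95 to 9.16 on the other ST arrays, and the lowest striatum mean of the ST arrays, 13.46. It was not among the 3, and it was kept in those counts.

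The arrays sat on 3 slides, and the groups were spread unevenly over them. The FC arrays of the chow mice were 3 on slide 1 and 1 (L52) on slide 2, whereas the 3 FC arrays of the CM mice were all on slide 3. The ST arrays of the chow mice were on slide 1 (L52), slide 2 (L54 and L56) and slide 3 (L58), and all 4 ST arrays of the CM mice were on slide 1. The HT arrays of the chow mice were 3 on slide 3 and 1 (L58) on slide 2, and all 4 HT arrays of the CM mice were on slide 2. Slide-blocked values, from the same model plus a fixed effect for slide, are given beside many of the results they change.

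All 53 members passed the filter on dim probes. On every array of the group, 49 members were well above background in FC of chow mice and 52 in FC of CM mice. The corresponding counts were 47 and 49 in ST and 52 and 51 in HT. Pcdhb1 was not well above background on any FC array of the chow mice, and Pcdhb11 on none of the ST arrays of the CM mice, so each has only an upper bound there. Pcdhac1 was well above background on 1 of the 4 FC arrays of the chow mice. Of the 53 rows, 7 average more than 1 probe. The longest run of bases shared by probes of different members was 13, between Pcdh9 and Pcdha9, and the next was 12, between Pcdhb13 and Pcdhb5.

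Between HT and FC of the chow mice, 5 members were higher and 17 lower in HT, beside 22.8% and 20.4% of all rows, or 22 in either direction beside 43.2%. The 2 groups did not overlap for 22 members, beside 32.4% of all rows, and 14 passed the study's thresholds, beside 23%. The median difference of the members was -0.27, against 0.02 over all rows. With 75th-percentile scaling the split was 7 higher and 14 lower, beside 9053 and 5449 of the 31395 rows. The medians were then -0.11 and 0.12. Blocked by slide, 3 members were higher and 9 lower, a total of 12, beside 14.8% of all rows called. Under this block the medians were -0.08 and 0.01. With the 3 arrays left out together, 17 members were called, beside 36.9% of all rows, and Pcdh7 (NM_018764), Pcdh11x (NM_001081385), Pcdhb2, Pcdhga5 and Pcdhga10 were lost. By cluster, 5 non-clustered rows were higher and 4 lower, while the calls among the clustered genes were all lower, with 5 of 7 Pcdha rows, 4 of 22 Pcdhb rows and 4 of 6 Pcdhg rows. Under 75th-percentile scaling Pcdhb and Pcdhg each had 1 row called higher. A lower level in bulk tissue can reflect fewer cells of a type or less RNA per cell, and these cannot be told apart.

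Between ST and FC of the chow mice, 1 member was higher and 5 were lower in ST, beside 7.71% and 7.22% of all rows, or 6 in either direction beside 14.9%. The 2 groups did not overlap for 7 members, beside 11.4% of all rows, and 0 passed the study's thresholds in limma, beside 2.09%, where 19 had an unadjusted p under 0.05. All 6 were non-clustered rows, and the median over the 18 non-clustered rows was -0.43 against -0.00249 over all rows. None of the 7 Pcdha, 22 Pcdhb and 6 Pcdhg rows was called by limma, with 3, 3 and 2 of them at an unadjusted p under 0.05. The Pcdhb and Pcdhg medians changed sign with the scaling, from -0.08 to 0.06 and from -0.13 to 0.12. With 75th-percentile scaling 2 members were higher and 3 lower, beside 3304 and 1975 of the 31395 rows. Of the 2 higher members 1 was a Pcdhb row. In the slide-blocked fit 4 were called, beside 10.9% of all rows, and they included Pcdhb18, higher by 0.62 with an adjusted p of 0.00579. Without array weights 2 members were higher and 11 lower. No share of all rows is given for counts without array weights or with a single array left out, here or below. Such counts cannot be set against the whole table. The count of 6 rested on few arrays: it was 1 without the ST array of L56, 11 without that of L54, and 2 (Pcdh11x AK031276 and Pcdh20) with the 3 arrays left out together, beside 8.54% of all rows.

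Between HT and ST of the chow mice, 5 members were higher and 8 lower in HT, beside 10.67% and 10.8% of all rows, or 13 in either direction beside 21.5%. The 2 groups did not overlap for 13 members, beside 21.7% of all rows, and 9 passed the study's thresholds, beside 11.8%. The 5 higher rows were all non-clustered, 1 non-clustered row was lower, and the other 7 lower rows were 2 Pcdha, 3 Pcdhb and 2 Pcdhg rows. The members' median was -0.09, against 0.03 over all rows. The slide-blocked count was also 13, beside 15% of all rows, but with 7 higher and 6 lower and a different list. Pcdha11, Pcdha12, Pcdhb19 (-0.14, adjusted p 0.746) and Pcdh15 (NM_001142747) were lost, and Pcdh1, Pcdh11x (NM_001081385), Pcdh17 and Pcdh20 were gained. There were 6 higher and 7 lower with the 3 arrays left out together, beside 18.6% of all rows.

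The 3 regional comparisons on chow share arrays, so their lists are not independent. At 2-fold or more, 5 members were called between HT and FC, beside 8.86% of all rows. They were Pcdh10, Pcdh7, Pcdh18, Pcdha12 and Pcdhgc5. Pcdh20 was called at 2-fold or more between ST and FC, beside 3.21% of all rows, and Pcdh18, Pcdh19 and Pcdh8 between HT and ST, beside 5.25% of all rows. Values on chow arrays are given below in the order L52, L54, L56 and L58.

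Pcdh10, a delta-2 protocadherin that acts in the growth of striatal and thalamocortical axons, has 2 rows. The levels of its NM_011043 row were 10.93, 10.99, 10.89 and 10.88 in FC and 10.15, 10.66, 9.99 and 10.08 in ST. In HT they were 9.41, 9.40, 9.46 and 9.01. The 4 FC arrays lay above the 4 ST arrays, which lay above the 4 HT arrays, with no overlap between any 2 regions. Pcdh10 was lower in HT than in FC by -1.55 ± 0.13 (limma adjusted p 4.17e-08), and by -1.68 under the slide block (adjusted p 0.000156). On slide 2 alone, 1 HT array minus 1 FC array gave -1.91. That HT array was the one of L58, whose level of 9.01 stood apart from the other HT arrays. Against ST, HT was lower by -0.82 ± 0.14 (adjusted p 0.000181), and ST was below FC by -0.72 ± 0.15 (adjusted p 0.00443). The other row, NM_001098172, went the same way, with -0.61 between HT and FC (adjusted p 0.000134) and -0.40 between ST and FC (adjusted p 0.0361). Its 4 HT arrays were each below its 4 FC arrays. With the 3 arrays left out together, the ST minus FC differences were -0.58 (adjusted p 0.0578) and -0.47 (adjusted p 0.0506) in the 2 rows, neither of them called. Under the slide block NM_011043 was still called (-0.75, adjusted p 0.00435), and NM_001098172 kept its size but not its call (-0.38, adjusted p 0.0868). The CM mice share no array with the chow mice, and there the NM_011043 row differed by -1.56 between HT and FC (adjusted p 1.46e-11).

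Pcdh18, a delta-2 protocadherin known to bind the adaptor protein Dab1, was high in HT. Its levels were 9.77, 9.63, 9.77 and 10.03 in HT, 8.82, 8.85, 8.61 and 8.75 in FC, and 8.83, 8.26, 8.32 and 7.72 in ST. Each HT array lay above each FC and ST array, while FC and ST overlapped. Pcdh18 was higher in HT than in ST by 1.47 ± 0.18 (limma adjusted p 6.91e-06) and higher than in FC by 1.05 ± 0.17 (adjusted p 6.96e-05). With the slide block the 2 differences were 1.82 and 1.63, and the adjusted p between HT and FC was 0.0017. Within slides, HT minus ST was 1.73 on slide 2 and 1.999 on slide 3. Among CM mice the HT levels were 9.90, 9.99, 9.95 and 9.62, and HT exceeded FC by 1.22 (adjusted p 2.15e-08) and ST by 1.32 (adjusted p 1.78e-08).

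Pcdh19, the X-linked delta-2 protocadherin whose mutation causes an epilepsy mainly in heterozygous females, had levels of 12.07, 11.48, 12.25 and 12.62 in HT. They were 11.03, 10.46, 10.72 and 10.26 in ST and 11.81, 10.97, 11.20 and 11.38 in FC. The HT arrays lay above the ST arrays without overlap, but the HT array of L54 lay below the FC array of L52. Pcdh19 was higher in HT than in ST by 1.45 ± 0.25 (limma adjusted p 0.00022), and by 1.77 under the slide block. The HT minus FC difference of 0.82 ± 0.23 had an adjusted p of 0.00777. Under the slide block it was 1.13 with an adjusted p of 0.0693, so that call depended on the slide term. For CM mice the differences were 1.604 against ST (adjusted p 8.28e-08) and 0.71 against FC (adjusted p 0.000629), and neither pair of groups overlapped.

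Pcdh8, or arcadlin, a delta-2 protocadherin induced by neuronal activity, had levels of 11.05, 10.87, 10.79 and 11.04 in HT and 10.04, 9.73, 9.93 and 9.63 in ST. In FC they were 10.98, 10.43, 10.30 and 10.92. ST stood lowest, with all 4 arrays below the arrays of FC and HT, and FC and HT overlapped. Pcdh8 was higher in HT than in ST by 1.04 ± 0.22 (limma adjusted p 0.0016; slide-blocked 0.0204). It was lower in ST than in FC by -0.73 ± 0.24 (adjusted p 0.0467), and this call was lost under the slide block, where the difference was -0.77 with an adjusted p of 0.0651. Among CM mice the HT minus ST difference was 0.74 (adjusted p 0.000202) and the ST minus FC difference was -0.55 (adjusted p 0.00307).

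Pcdh17, the remaining delta-2 member, is known for a role in synapses of cortico-striatal circuits. Its levels were 12.81, 12.96, 13.20 and 13.43 in HT and 12.28, 12.45, 12.64 and 11.92 in FC, with no overlap. In ST they were 13.36, 12.39, 12.84 and 12.09, a range that overlaps both other regions. Pcdh17 was higher in HT than in FC by 0.76 ± 0.18 (limma adjusted p 0.00249). The difference was 1.48 under the slide block (adjusted p 0.00274) and 1.15 between the HT and FC arrays on slide 2. HT was above ST by 0.39 (adjusted p 0.174), which was not called, by 0.82 under the slide block (adjusted p 0.033) and by 0.59 with the 3 arrays left out together (adjusted p 0.0483). ST was above FC by 0.37 (adjusted p 0.272), and by 0.66 under the slide block (adjusted p 0.0378). For CM mice the HT minus FC difference was 1.02 (adjusted p 6.83e-07) and the ST minus FC difference was 0.63 (adjusted p 0.000369), but the latter was -0.30 under the slide block (adjusted p 0.706).

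**Figure D1:**
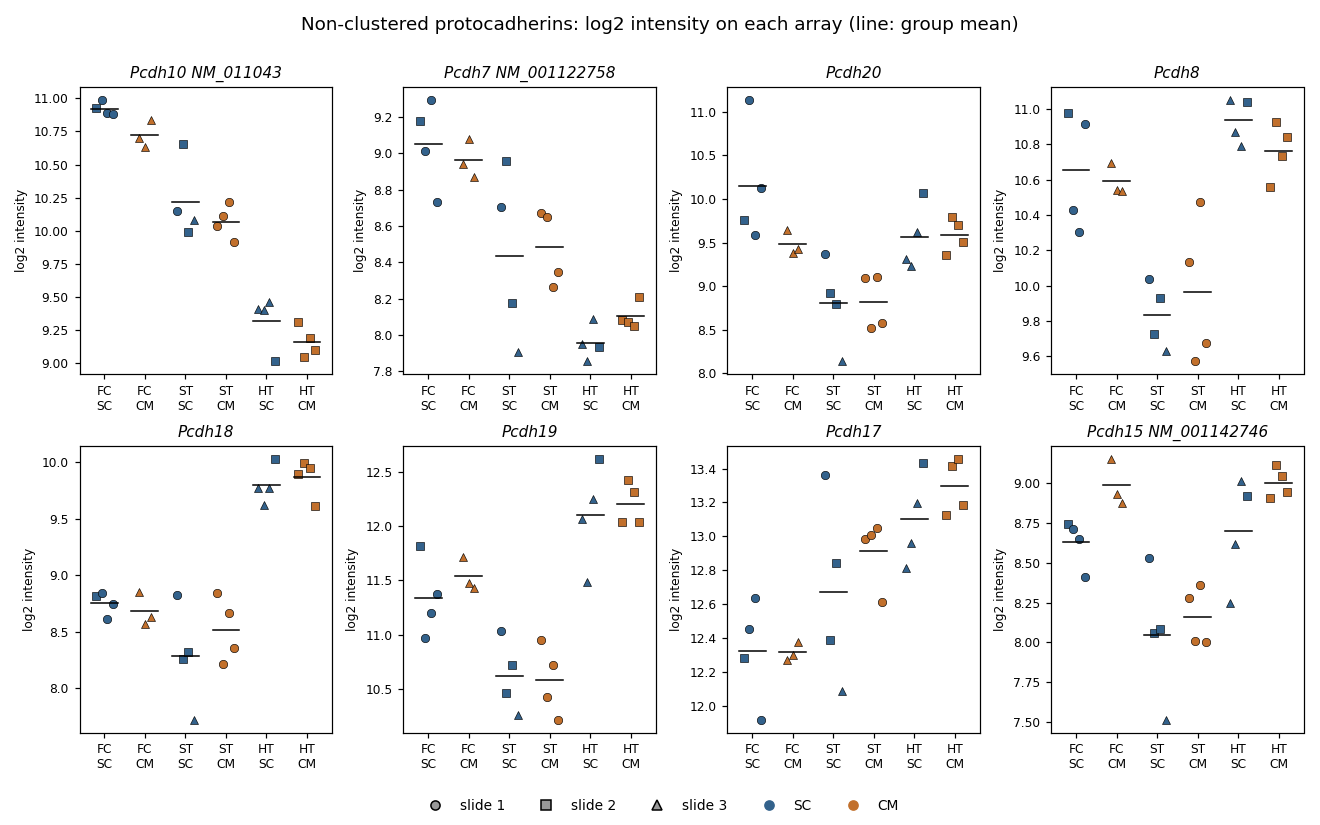
Log2 intensity of 8 non-clustered protocadherin rows on each array, by region and diet, with the marker shape giving the slide, the colour the diet and the line the group mean. Pcdh10 fell from FC through ST to HT in both diets, and the Pcdh18 and Pcdh19 means were highest in HT.

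Pcdh10, Pcdh18, Pcdh19 and Pcdh17 are the delta-2 genes called between HT and FC on chow, Pcdh10 lower and the other 3 higher in HT. Their promoters are shown as examples, chosen after the values were seen. The sequences are the RefSeq windows of mouse build GRCm38.p6, 250 bases before to 50 bases after the start of transcription. They run 5′ to 3′ on the gene's strand, and 9 of the non-clustered genes had an entry. Capitals mark CCAAT read on either strand, so that the reverse strand reads ATTGG. The windows are Pcdh10 at chr3:45378148-45378447 on the + strand, Pcdh18 at chr3:49757267-49757566 on the - strand, Pcdh19 at chrX:133688944-133689243 on the - strand and Pcdh17 at chr14:84443313-84443612 on the + strand.
Pcdh10: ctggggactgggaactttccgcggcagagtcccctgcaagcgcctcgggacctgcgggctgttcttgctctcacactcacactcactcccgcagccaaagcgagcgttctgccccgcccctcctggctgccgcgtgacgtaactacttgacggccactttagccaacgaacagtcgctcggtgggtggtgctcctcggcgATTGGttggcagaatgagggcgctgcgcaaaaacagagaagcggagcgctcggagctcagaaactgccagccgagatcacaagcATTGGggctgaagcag
Pcdh18: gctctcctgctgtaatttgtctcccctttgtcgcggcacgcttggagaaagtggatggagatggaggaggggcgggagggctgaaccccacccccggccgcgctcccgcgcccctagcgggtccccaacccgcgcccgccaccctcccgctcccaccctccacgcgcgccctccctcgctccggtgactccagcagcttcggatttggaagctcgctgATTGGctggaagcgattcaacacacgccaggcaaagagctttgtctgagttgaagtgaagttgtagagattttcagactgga
Pcdh19: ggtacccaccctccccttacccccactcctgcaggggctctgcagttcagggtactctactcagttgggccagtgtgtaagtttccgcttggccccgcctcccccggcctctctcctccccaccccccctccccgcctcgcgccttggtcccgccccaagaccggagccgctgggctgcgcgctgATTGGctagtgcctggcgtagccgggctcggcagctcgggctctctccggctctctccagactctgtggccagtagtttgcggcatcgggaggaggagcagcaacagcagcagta
Pcdh17: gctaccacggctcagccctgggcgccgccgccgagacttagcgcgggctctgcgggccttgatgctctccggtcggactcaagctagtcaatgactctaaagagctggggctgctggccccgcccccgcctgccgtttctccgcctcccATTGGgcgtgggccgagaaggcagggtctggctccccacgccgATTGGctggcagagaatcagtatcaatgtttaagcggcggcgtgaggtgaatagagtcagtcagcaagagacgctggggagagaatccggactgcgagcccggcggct
The Pcdh10 and Pcdh17 windows hold 2 matches each and the Pcdh18 and Pcdh19 windows 1 each. Of the 9 genes, 8 (all but Pcdh7) hold CCAAT, beside 37.4% of 32851 RefSeq mouse promoters of the same length. GGGCGG or its reverse CCGCCC is in 4 of the 9, the 4 shown, and in 35.7% of all promoters. TATAAA or its reverse TTTATA (13.6% of all promoters) is in Pcdh8 and Pcdh15, and none of the 9 holds CACGTG, which is its own reverse (7.15%). CpG dinucleotides number 24, 23, 18 and 26 in Pcdh10, Pcdh18, Pcdh19 and Pcdh17 and 4 to 19 in the other 5 genes, beside a median of 7 over all promoters. These matches describe the letters only, and no binding was measured.

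Among the delta-1 protocadherins (Pcdh1, Pcdh7, Pcdh9 and Pcdh11x), Pcdh7 was low in HT. The levels of its NM_001122758 row were 7.95, 7.86, 8.08 and 7.93 in HT, 9.18, 9.02, 9.29 and 8.73 in FC and 8.70, 8.96, 8.18 and 7.90 in ST. All 4 HT arrays lay below all 4 FC arrays, and ST overlapped both. Pcdh7 was lower in HT than in FC by -1.08 ± 0.16 (limma adjusted p 3.4e-05). Blocked by slide, the difference was -0.82 with an adjusted p of 0.0856, so the call was lost, and on slide 2 alone it was -1.25. Among CM mice it was -0.88 (adjusted p 9.11e-07). The NM_001122758 row averages 2 probes, which gave -1.18 and -0.97. The other Pcdh7 row, NM_018764, differed by -0.63 (adjusted p 0.0137), with overlapping groups, and by -0.25 under the slide block (adjusted p 0.689). Between ST and FC the NM_001122758 row differed by -0.64 (adjusted p 0.0293), also with overlap, and by -0.56 under the slide block (adjusted p 0.0891).

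Pcdh11x, an X-linked delta-1 protocadherin, has 2 rows that did not behave alike. The AK031276 row had levels of 8.62, 8.64, 8.86 and 8.39 in HT, 8.15, 8.09, 8.05 and 7.90 in FC and 8.31, 8.36, 8.56 and 8.98 in ST. FC was lowest and did not overlap with ST or HT. The row was higher by 0.66 in HT (limma adjusted p 7.93e-05) and by 0.50 in ST (adjusted p 0.0141) than in FC. In the slide-blocked fit these were 0.15 (adjusted p 0.618) and 0.32 (adjusted p 0.0679), so both calls were lost. For CM mice HT was lower than FC by -0.19 (adjusted p 0.0358), and this was the only row called between HT and FC with opposite signs in the 2 diets. The NM_001081385 row was higher in HT than in FC by 0.41 (adjusted p 0.0403), by 1.02 under the slide block (adjusted p 0.0141), and by 0.47 in the CM mice (adjusted p 0.000698). This call was lost with the 3 arrays left out together (0.33, adjusted p 0.135). Against ST it was higher by 0.36 (adjusted p 0.132), and by 0.81 under the slide block (adjusted p 0.0181).

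Pcdh1 and Pcdh9 were not called between regions on chow without the slide block. Pcdh1 had a HT minus FC difference of 0.13, which became -0.63 under the slide block (adjusted p 0.034), a change of sign. Against ST the slide-blocked difference of Pcdh1 was -0.60 (adjusted p 0.0162), against -0.22 without the block (adjusted p 0.316). Pcdh9 is the mean of 3 probes, which gave 0.63, -0.04 and 0.00396 between HT and FC on chow and so disagreed. Among CM mice Pcdh9 was higher in HT than in FC by 0.33 (limma adjusted p 0.00376) and than in ST by 0.57 (adjusted p 3.64e-05). Its 4 HT arrays there, at 9.19, 9.26, 9.11 and 9.33, lay above the 3 FC and 4 ST arrays.

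Pcdh20, a non-clustered protocadherin outside the delta-1 and delta-2 groups, had levels of 9.75, 11.13, 9.59 and 10.13 in FC and 9.36, 8.92, 8.79 and 8.14 in ST. In HT they were 9.31, 9.23, 9.62 and 10.07. FC lay above ST without overlap, and its highest value, 11.13, was on the array of L54 that carried the olfactory bulb markers. Pcdh20 was lower in ST than in FC by -1.26 ± 0.31 (limma adjusted p 0.0107). It was lower by -1.07 with the 3 arrays left out together (adjusted p 0.0348). With the slide block it was -0.80 with an adjusted p of 0.113, so the call was lost, and the within-slide differences were -0.92 on slide 1 and -0.90 on slide 2. HT was above ST by 0.71 (adjusted p 0.0802), which was not called, by 1.24 under the slide block (adjusted p 0.0386) and by 0.80 with the 3 arrays left out together (adjusted p 0.0386). For CM mice the ST minus FC difference was -0.60 (adjusted p 0.011), and there HT was above ST by 0.75 (adjusted p 0.00197).

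Pcdh15, part of the tip links of hair cells, has 4 rows, and Pcdh12, a protocadherin of endothelial cells, has 1. The Pcdh15 row NM_001142746 had levels of 8.24, 8.62, 9.01 and 8.92 in HT and 8.53, 8.06, 8.09 and 7.51 in ST. HT was higher except that the ST array of L52 lay above the HT array of the same mouse. That row was higher in HT than in ST by 0.68 (limma adjusted p 0.00876), by 0.98 under the slide block (adjusted p 0.0146), and by 0.83 in the CM mice (adjusted p 6.62e-06). NM_001142747 was higher by 0.45 (adjusted p 0.0436), and by 0.45 under the slide block, where the adjusted p was 0.162. It was higher by 0.34 with the 3 arrays left out together (adjusted p 0.189). Its ST minus FC difference was -0.30 (adjusted p 0.269), and -0.68 under the slide block (adjusted p 0.00971). For CM mice it was -0.61 without overlap (adjusted p 5.63e-05), and -0.16 under the slide block (adjusted p 0.826). Its 2 probes gave -0.32 and 0.63 between HT and FC and so had opposite signs, and those of NM_001142743 gave -0.71 and -0.02. The other 2 Pcdh15 rows and Pcdh12 were not called between regions on chow, and the levels of Pcdh12 lay between 5.04 and 6.31 over all arrays.

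**Figure D2:**
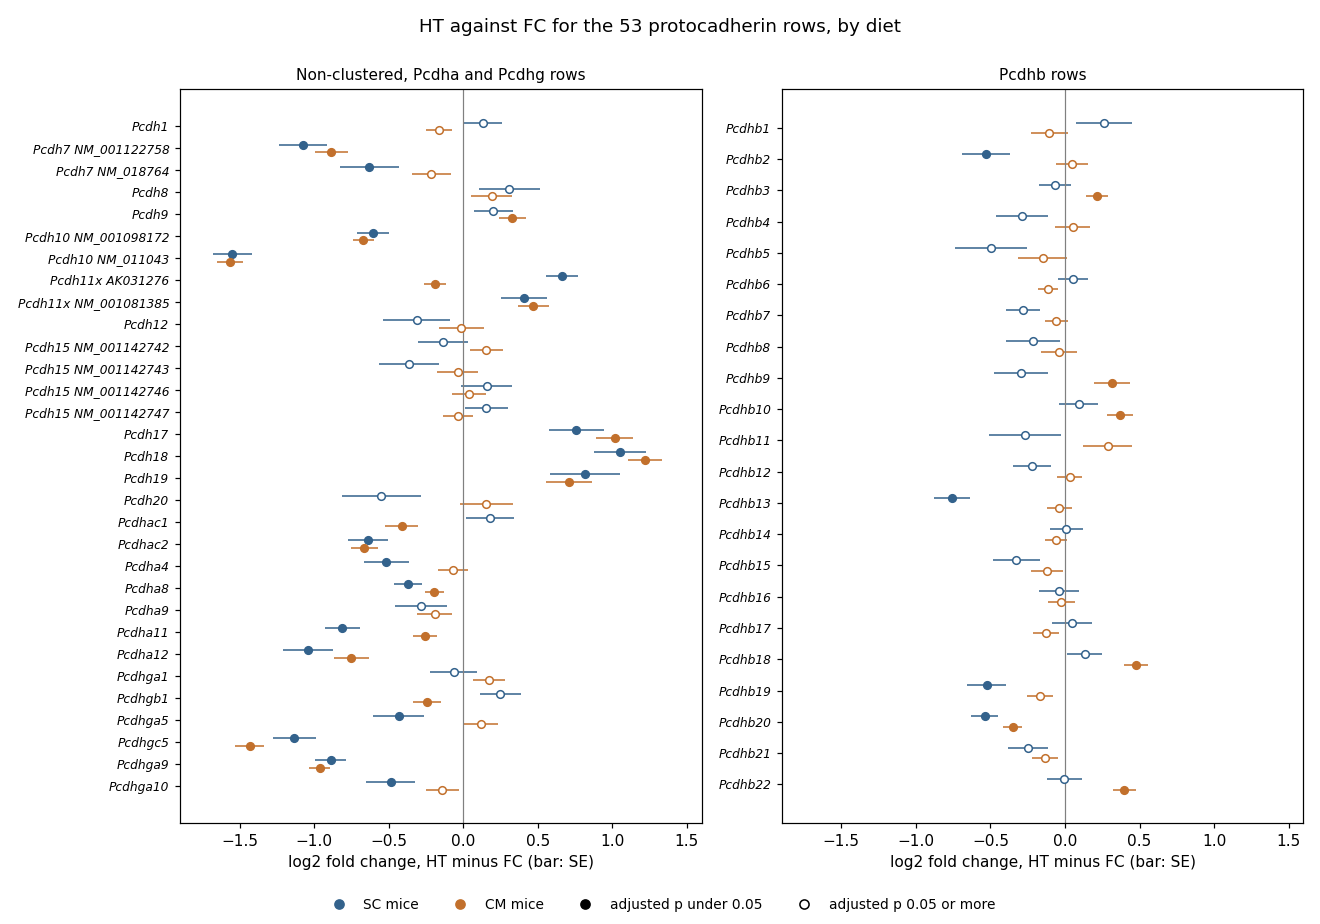
Fitted log2 difference HT minus FC of the 53 protocadherin rows in chow mice (SC) and in CM mice, with bars for the SE and filled points for limma adjusted p under 0.05. On chow the called Pcdha and Pcdhg rows, 5 of 7 and 4 of 6, were all lower in HT, beside 20.4% of all rows. In CM mice 5 of 7 and 3 of 6 were called, all lower, beside 28.2% of all rows. Under the slide block 3 Pcdha and 2 Pcdhg rows were lower on chow, beside 2296 of the 31395 rows. In CM mice 0 and 2 were lower under that block, beside 2352 of the 31395 rows. With 75th-percentile scaling 1 Pcdhg row was higher on chow, beside 9053 of the 31395 rows.

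In the alpha cluster, whose isoforms share constant exons, all 7 rows except Pcdhac1 had a difference below 0 between HT and FC on chow. The median was -0.51, and -0.36 with 75th-percentile scaling. Pcdha12 had levels of 8.27, 8.46, 8.07 and 8.20 in HT, 8.98, 9.63, 9.28 and 9.08 in FC and 8.72, 9.06, 8.86 and 8.95 in ST. The HT arrays lay below all FC and ST arrays, which overlapped each other. Pcdha12 was lower in HT than in FC by -1.04 ± 0.17 (limma adjusted p 7.19e-05; slide-blocked -1.01 and 0.0343). It was lower in HT than in ST by -0.68 ± 0.18 (adjusted p 0.00992), a call lost under the slide block (-0.68, adjusted p 0.0898). Among CM mice the 2 differences were -0.75 (adjusted p 1.29e-05) and -0.70 (adjusted p 5.56e-05).

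Pcdha11 had levels of 6.9975, 6.83, 6.82 and 6.97 in HT and 7.48, 7.73, 7.83 and 7.56 in FC, without overlap. In ST they were 7.05, 7.48, 7.31 and 7.24, all above the HT arrays. Pcdha11 was lower in HT than in FC by -0.81 ± 0.12 (limma adjusted p 1.9e-05; slide-blocked 0.0336). Against ST it was lower by -0.43 (adjusted p 0.0157), and by -0.34 under the slide block (adjusted p 0.279). Without the HT array of L56 that difference was -0.38 with an adjusted p of 0.0672. For CM mice the HT minus FC difference was smaller, -0.26 (adjusted p 0.00865), with overlapping groups. Pcdha4 and Pcdha8 were lower in HT by -0.51 (adjusted p 0.00867) and -0.37 (adjusted p 0.00322), and neither was called under the slide block. There Pcdha4 differed by -0.47 (adjusted p 0.257), about as much, and Pcdha8 by -0.22 (adjusted p 0.449). The 2 probes of Pcdha8 gave -0.45 and -0.30.

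The C-type isoforms of the alpha cluster are Pcdhac1 and Pcdhac2. Pcdhac2 had levels of 9.91, 10.14, 9.78 and 9.72 in HT and 10.80, 10.39, 10.52 and 10.50 in FC. In ST they were 10.06, 10.29, 10.16 and 10.16. HT lay below FC without overlap, and ST lay between them, overlapping HT. Pcdhac2 was lower in HT than in FC by -0.64 ± 0.14 (limma adjusted p 0.000834; slide-blocked -0.89 and 0.0209) and by -0.66 in the CM mice (adjusted p 3.48e-06). The row averages 2 probes, which gave -0.59 and -0.69. The first of these lies beyond the other alpha probes on the array, so it may read other alpha isoforms too, since exon positions were not used here. Pcdhac1 was not called between regions on chow, with 0.18 between HT and FC (adjusted p 0.391), and its levels of 4.91 to 5.73 were close to background. Among CM mice it was lower in HT than in FC by -0.41 (adjusted p 0.00306) with overlapping groups, and by -0.11 under the slide block (adjusted p 0.867).

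The genes of the beta cluster have 1 exon each and no constant part. In this cluster 4 of 22 rows were called lower in HT than in FC on chow, beside 20.4% of all rows. Under the slide block 1 of the 22 was called lower, beside 2296 of the 31395 rows. The median of the 22 was -0.23, and -0.06 under the slide block. Pcdhb13 had levels of 6.36, 6.40, 6.52 and 6.28 in HT, 7.26, 6.98, 7.42 and 6.995 in FC and 7.50, 7.17, 7.18 and 7.25 in ST. HT lay below both other regions without overlap, and FC and ST overlapped. Pcdhb13 was lower in HT by -0.76 ± 0.12 against FC (limma adjusted p 6.91e-05; slide-blocked 0.0314) and by -0.80 ± 0.13 against ST (adjusted p 0.00015; slide-blocked 0.00467). Among CM mice it was lower in HT than in ST by -0.81 (adjusted p 1.76e-07), but between HT and FC the difference was -0.04 (adjusted p 0.719). Its FC arrays there read 6.65, 6.71 and 6.80, below each FC array of the chow mice.

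Pcdhb20 had levels of 9.57, 9.76, 9.51 and 9.46 in HT, 10.05, 10.30, 10.10 and 10.02 in FC and 10.24, 10.18, 10.10 and 9.86 in ST. All HT arrays lay below all FC and ST arrays. Pcdhb20 was lower in HT by -0.54 ± 0.09 against FC (limma adjusted p 0.000102) and by -0.54 ± 0.10 against ST (adjusted p 0.000348). Under the slide block these were -0.38 (adjusted p 0.117) and -0.46 (adjusted p 0.023). For CM mice they were -0.35 (adjusted p 6.06e-05) and -0.42 (adjusted p 1.34e-05). Pcdhb19 and Pcdhb2 were the other 2 rows called between HT and FC, with -0.52 (adjusted p 0.00308) and -0.53 (adjusted p 0.0113). Blocked by slide, Pcdhb19 differed by -0.07 (adjusted p 0.888) and Pcdhb2 by 0.03 (adjusted p 0.971).

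In the gamma cluster, 4 of 6 rows were called lower in HT than in FC on chow, beside 20.4% of all rows. With the slide block 2 were lower, beside 2296 of the 31395 rows. With 75th-percentile scaling 2 were lower and 1 higher, beside 5449 and 9053 of the 31395 rows. The median was -0.46, -0.28 under the slide block and -0.19 with 75th-percentile scaling. Pcdhgc5, the C-type isoform at the end of the cluster, had levels of 6.0041, 6.28, 6.12 and 5.86 in HT, 7.43, 7.26, 7.12 and 7.26 in FC and 6.68, 7.22, 6.65 and 7.04 in ST. HT lay below ST and FC without overlap, and ST overlapped FC on the array of L54. Pcdhgc5 was lower in HT than in FC by -1.13 ± 0.15 (limma adjusted p 5.64e-06; slide-blocked -1.50 and 0.000838). It was lower in HT than in ST by -0.74 ± 0.15 (adjusted p 0.00147; slide-blocked 0.005). Among CM mice the 2 differences were -1.43 (adjusted p 2.3e-10) and -0.87 (adjusted p 5.38e-07), and on slide 2 the HT and FC chow arrays differed by -1.57.

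Pcdhga9 had levels of 12.88, 12.92, 12.67 and 12.62 in HT and 13.42, 13.74, 13.61 and 13.74 in FC. In ST they were 13.53, 13.57, 13.13 and 13.63. HT lay below both other regions without overlap. Pcdhga9 was lower in HT by -0.89 ± 0.10 against FC (limma adjusted p 1.61e-06; slide-blocked 0.00119) and by -0.59 ± 0.11 against ST (adjusted p 0.00051; slide-blocked 0.000718). For CM mice these were -0.96 (adjusted p 4.29e-10) and -0.88 (adjusted p 4e-09). Both probes of the row lie beyond the Pcdhgc5 probe, so they may read other gamma isoforms as well. They gave -1.28 and -0.50 between HT and FC, the same sign with different sizes, and -0.64 and 0.04 between ST and FC, opposite signs. Pcdhga5 and Pcdhga10 were the other 2 called gamma rows, at -0.43 (adjusted p 0.049) and -0.49 (adjusted p 0.0204), and under the slide block they differed by -0.08 (adjusted p 0.918) and -0.13 (adjusted p 0.811).

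**Figure D3:**
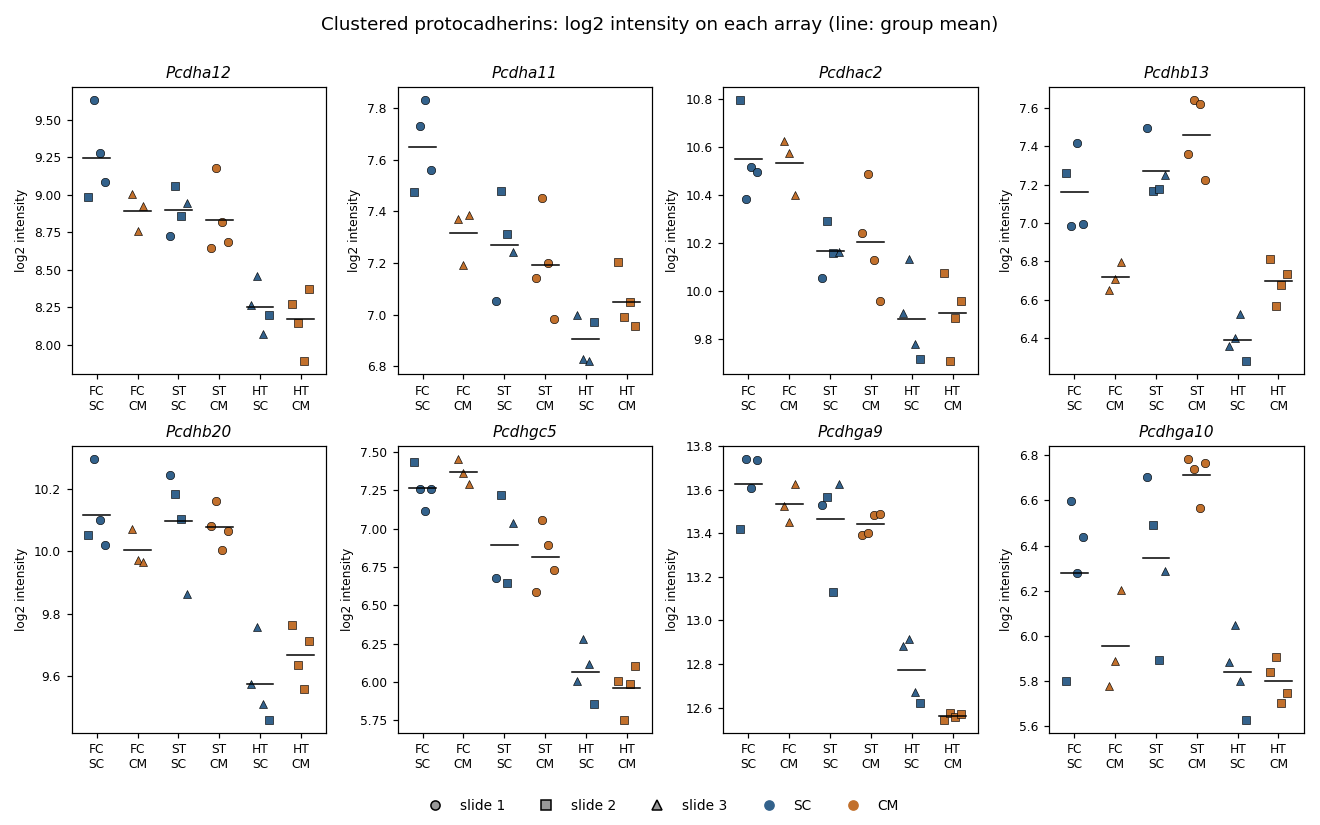
Log2 intensity of 8 clustered protocadherin rows on each array, by region and diet, with the marker shape giving the slide, the colour the diet and the line the group mean. On chow the 4 HT arrays of Pcdha12, Pcdha11, Pcdhb13, Pcdhb20, Pcdhgc5 and Pcdhga9 lay below the 4 FC and 4 ST arrays, while Pcdhga10 overlapped.

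The regional comparisons in the CM mice use none of the chow arrays. Between HT and FC, 10 members were higher and 13 lower there, beside 29.5% and 28.2% of all rows, or 23 in either direction beside 57.8%. No overlap was seen for 22 members, beside 56.4% of all rows, 4 were called at 2-fold or more, beside 9.5%, and 10 passed the study's thresholds, beside 22.2%. With the 3 arrays left out together 23 were called, beside 57.6%, and without array weights 15. Of the 22 members called on chow and the 23 called in CM mice, 14 were called in both with the same sign, or 63.6% and 60.9% of the lists, beside 63% of all rows called on chow. Pcdhb10, Pcdhb18 and Pcdhb22 were among the 5 Pcdhb rows higher in HT of the CM mice, at 0.37 (limma adjusted p 0.00116), 0.48 (adjusted p 3.52e-05) and 0.40 (adjusted p 0.000258). In the slide-blocked fit 0 of the 53 were higher and 5 lower, beside 16% of all rows called. The 5 were both Pcdh10 rows, Pcdh7 (NM_001122758), Pcdhgc5 and Pcdhga9, so the CM calls between HT and FC given above for all other genes were lost, although several differences kept their size. Slide-blocked, Pcdhb10 differed by 0.35 (adjusted p 0.327), Pcdhb18 by 0.36 (adjusted p 0.214) and Pcdhb22 by 0.15 (adjusted p 0.724), while Pcdhb20 differed by -0.42 (adjusted p 0.0566), Pcdhac2 by -0.60 (adjusted p 0.0811), Pcdha12 by -0.68 (adjusted p 0.116), Pcdha11 by -0.34 (adjusted p 0.336) and Pcdh9 by 0.38 (adjusted p 0.285). The differences were smaller for Pcdh18 (0.72, adjusted p 0.0899) and Pcdh17 (0.49, adjusted p 0.262). Pcdh19 went from 0.71 to 0.11 (adjusted p 0.903) and Pcdh11x NM_001081385 from 0.47 to 0.02 (adjusted p 0.976). Pcdh11x AK031276 turned to 0.23 (adjusted p 0.342).

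Between HT and ST of the CM mice, 13 members were higher and 18 lower, beside 30.4% and 25.9% of all rows, or 31 in either direction beside 56.3%. No overlap was seen for 27 members, beside 50.3% of all rows, 2 were called at 2-fold or more, beside 8.88%, and 11 passed the study's thresholds, beside 22.7%. There were 29 with the 3 arrays left out together, beside 54.2%. Of the 13 called on chow and the 31 called in CM mice, 12 were shared with the same sign, or 92.3% and 38.7%, beside 92.8% of all rows called on chow. With the slide block 13 members were called in the CM mice, beside 19.4% of all rows, and Pcdh8 (0.58, adjusted p 0.201), Pcdha12 (-0.63, 0.0734) and Pcdhb20 (-0.31, 0.079) were among those lost. Pcdhga10 was lower in HT by -0.90 (limma adjusted p 1.46e-06), and by -0.32 under the slide block (adjusted p 0.274).

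Between ST and FC of the CM mice, 12 members were higher and 17 lower, beside 30.5% and 30.1% of all rows, or 29 in either direction beside 60.6%. No overlap was seen for 26 members, beside 59.3% of all rows. At 2-fold or more limma called 0, beside 9.57%, and the study's thresholds left 0, beside 9.45%, with 31 members at an unadjusted p under 0.05. With the 3 arrays left out together 25 were called, beside 57.6%, and without array weights 19. With 75th-percentile scaling the split was 10 higher and 24 lower, beside 8564 and 11994 of the 31395 rows. Of the 6 called on chow and the 29 called in CM mice, 5 were shared with the same sign, or 83.3% and 17.2%, beside 55.5% of all rows called on chow. The shared rows were both Pcdh10 rows, Pcdh7 (NM_001122758), Pcdh8 and Pcdh20, all lower in ST. Pcdhb18 and Pcdhb13 were higher in ST by 0.78 (limma adjusted p 2.7e-07) and 0.77 (adjusted p 5.4e-07), without overlap. Under the slide block only Pcdh15 (NM_001142746) was called, at -1.38 with an adjusted p of 0.0337, beside 3.17% of all rows. Among CM mice each region lay on a slide of its own, so region and slide cannot be told apart in these arrays alone, and the slide-blocked values rest on the chow arrays.

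Levels of cell-type markers also differed between the regions. Over all rows, 22.8% were called higher and 20.4% lower between HT and FC on chow. The shares were 7.71% and 7.22% between ST and FC and 10.67% and 10.8% between HT and ST. Between HT and FC on chow, 7 of 9 oligodendrocyte rows were higher and 1 lower, and their mean was 13.21 to 13.44 on the HT arrays and 12.06 to 13.09 on the FC arrays. Of 7 neuron rows 1 was higher and 3 lower, with means of 14.29 to 14.48 in HT and 14.73 to 14.88 in FC. Of 8 microglia rows 5 were lower, and of 8 astrocyte rows 2 were higher and 2 lower. Of 4 oligodendrocyte precursor rows 3 were higher, of 7 endothelium rows 1 was higher and 1 lower, of 4 olfactory bulb rows 1 was lower and of 5 choroid plexus rows none was called. In ST 7 of the 9 oligodendrocyte rows were higher than in FC, with means of 13.35 to 13.79 in ST, among them Mobp by 1.20 (adjusted p 0.00804). In the neuron list Syt1 and Stmn2 were lower in ST by -0.78 (adjusted p 0.00512) and -0.66 (adjusted p 0.0168), and 2 astrocyte rows were lower and 1 oligodendrocyte precursor row higher. Between HT and ST 2 neuron rows were higher and 3 lower, with Stmn2 at 0.99 (adjusted p 0.000125) and Rbfox3 at -1.13 (adjusted p 2.84e-07). Both Mbp rows and 7 of 8 microglia rows were lower in HT than in ST, 2 astrocyte rows were higher and 2 lower, and 1 oligodendrocyte precursor row was higher. The part of these markers in the protocadherin differences was not tested.

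In FC, the diet comparison called 4 members higher and 8 lower in CM than in chow mice, beside 15.4% and 13.2% of all rows, or 12 in either direction beside 28.6%. The groups did not overlap for 13 members, beside 25.3% of all rows. The members' median was -0.13, against -0.04 over all rows. With 75th-percentile scaling 4 members were higher and 1 lower, beside 6941 and 3188 of the 31395 rows. The members' median was then -0.00404, against 0.04 over all rows. In limma 0 members were called at 2-fold or more, beside 3.26% of all rows, and 0 passed the study's thresholds, beside 2.94%, with 17 at an unadjusted p under 0.05. In FC no slide held both diets, so no within-slide value exists. Blocked by slide, limma called 0 members and 0% of all rows. The members' median was then -0.00251, against 0.01 over all rows. Without array weights, which were 1.78 to 2.74 on the CM arrays and 0.307 to 0.971 on the chow arrays, 2 members were higher and 2 lower. With the 3 arrays left out together, 7 members were called, beside 18% of all rows, and Pcdha4, Pcdhb7, Pcdhb9, Pcdhb17 and Pcdhga10 were lost. The count of 12 was 6 without the FC array of L54, L58 or O56, and 7 without that of L56.

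Pcdh11x (AK031276) had the largest rise among the members called in FC. With 75th-percentile scaling Pcdhac1 (1.05) and Pcdhgb1 (0.88) rose more than Pcdh11x (0.68). Its FC levels were 8.58, 8.55 and 8.63 on the arrays of O54, O56 and O58, against 8.15, 8.09, 8.05 and 7.90 in the chow mice. All 3 CM arrays lay above the 4 chow arrays. The difference was 0.56 ± 0.10 (limma adjusted p 0.000459), but -0.01 under the slide block (adjusted p 0.998). Pcdhgb1 read 6.56, 6.35 and 6.40 in the CM mice and 6.14, 5.97, 5.92 and 5.82 in the chow mice, also without overlap. It rose by 0.50 ± 0.13 (adjusted p 0.00632; 0.0937 without array weights), and its sign turned to -0.24 under the slide block (adjusted p 0.918). Pcdhac1 read 5.73, 5.51 and 5.39 against 4.91, 5.31, 5.12 and 5.03, where only 1 of the 4 chow arrays was well above background. It rose by 0.44 ± 0.15 (adjusted p 0.0305), and by 0.20 under the slide block (adjusted p 0.967). Leaving out the FC array of L52, L56, L58, O54 or O56 gave adjusted p of 0.0621, 0.0547, 0.0556, 0.11 and 0.0555.

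Pcdhb2 had the largest fall among the members called in FC, while Pcdh20, not called and with overlapping groups, differed by -0.61 (adjusted p 0.0615). Pcdhb2 levels were 5.38, 5.46 and 5.23 in the CM mice and 5.69, 6.16, 6.08 and 5.79 in the chow mice, without overlap. The Pcdhb2 difference was -0.59 ± 0.14 (limma adjusted p 0.00485), 0.01 under the slide block (adjusted p 0.998), and -0.42 with 75th-percentile scaling (adjusted p 0.117). Pcdhb9 read 5.86, 6.07 and 5.83 against 6.26, 6.47, 6.41 and 6.59, also without overlap. It fell by 0.52 ± 0.17 (adjusted p 0.0244, or 0.0753 without array weights). The slide-blocked Pcdhb9 difference was -0.22 (adjusted p 0.966). Its adjusted p was 0.0626 without the FC array of L54 and 0.0585 without that of L58, both without the slide block. Pcdhb13 read 6.65, 6.71 and 6.80 against 7.26, 6.98, 7.42 and 6.995, again apart. It fell by 0.47 ± 0.11 (adjusted p 0.00418) and by 0.50 under the slide block, where the adjusted p was 0.719. Without the FC array of L56 the Pcdhb13 difference was -0.31 (adjusted p 0.0573).

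The other 6 called members were Pcdhb17, higher by 0.34, and Pcdhga5, Pcdhga10, Pcdha11, Pcdha4 and Pcdhb7, with -0.46, -0.40, -0.39, -0.39 and -0.31. Their limma adjusted p ranged from 0.00946 (Pcdha11) to 0.0492 (Pcdhga10). The groups overlapped for Pcdhb17 and Pcdhga10 and not for the other 4. Under the slide block Pcdhb17 differed by 0.14, and Pcdhga5, Pcdhga10, Pcdha11, Pcdha4 and Pcdhb7 by -0.08, -0.08, -0.32, -0.33 and -0.03. Of the 12, Pcdhb7 was the only lower call under 75th-percentile scaling, and Pcdh11x (AK031276), Pcdhgb1 and Pcdhac1 remained called higher. Pcdhb1 was also called higher there, but it was not well above background on any FC array of the chow mice and has only a bound. Without that scaling it was at least 1.3-fold higher in the CM mice, with an adjusted p of 0.0593, and was not called.

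**Figure D4:**
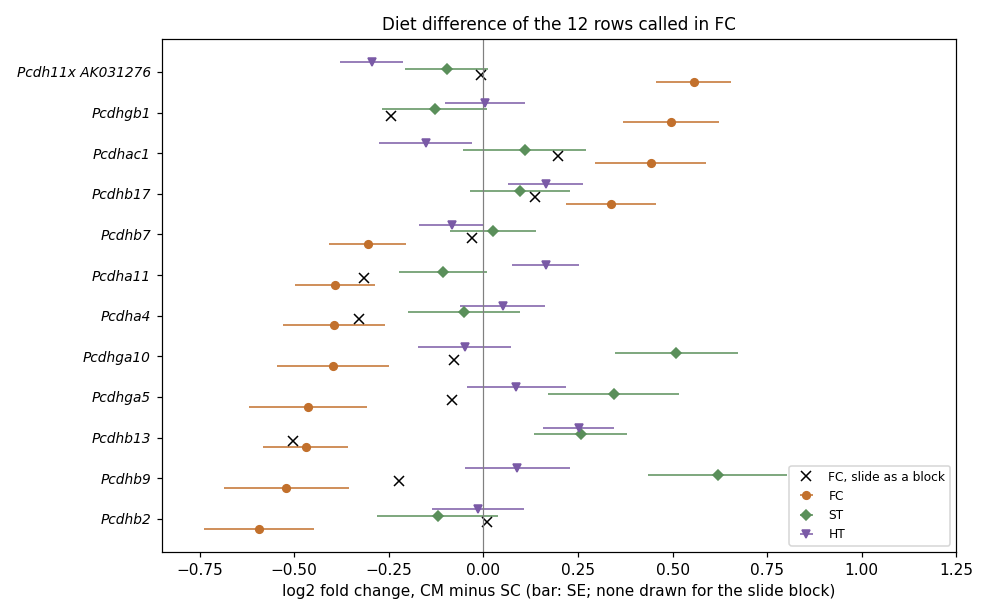
Fitted log2 difference CM minus chow in FC, ST and HT for the 12 rows called in FC, with bars for the SE, and crosses for FC with the slide as a block. The crosses of Pcdh11x (AK031276), Pcdhb2 and Pcdhgb1 lay at -0.01, 0.01 and -0.24, on the other side of 0 from the FC points.

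Other measures moved with diet in FC as well, where 15.4% of all rows were called higher with CM and 13.2% lower. The share of spots well above background was 69.9% to 71.3% on the CM arrays and 61.4% to 64.9% on the chow arrays. Of 9 oligodendrocyte rows, 1 was higher and 5 were lower with CM, and their mean was 12.05 to 12.36 on the CM arrays and 12.06 to 13.09 on the chow arrays. Of 8 astrocyte rows 3 were lower, of 4 oligodendrocyte precursor rows 2 were lower (Sox10 by -0.59 and Cspg4 by -0.37) and of 4 olfactory bulb rows 1 was lower (Cdhr1 by -2.29). Of 8 microglia rows 1 was higher (Itgam by 0.44), of 7 endothelium rows 1 was higher (Pecam1 by 0.52), and of 10 striatum rows 1 was lower, with striatum means of 9.71, 10.04 and 11.84 on the CM arrays and 9.75, 11.39, 11.93 and 11.82 on the chow arrays. Their part in the protocadherin differences was not tested, and diet and slide cannot be told apart in FC.

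In ST, 1 member was called higher and 0 lower in CM than in chow mice, beside 3.45% and 6.37% of all rows, with 5 members at an unadjusted p under 0.05 in limma. In either direction 9.82% of all rows were called. The groups overlapped for all 53 members, beside 7.67% of all rows without overlap, and 0 were called at 2-fold or more, beside 0.879%, or at the study's thresholds, beside 0.602%. The call was Pcdhb9, which read 6.84, 6.15, 6.58 and 6.47 in the CM mice (O52, O54, O56 and O58) and 6.59, 5.48, 5.94 and 6.05 in the chow mice. The groups overlapped, because the chow array of L52 lay above 3 of the 4 CM arrays. Pcdhb9 rose by 0.62 ± 0.18 (limma adjusted p 0.0381), and by 0.18 under the slide block (adjusted p 1). On slide 1, where L52 and all 4 CM arrays sat, the difference was -0.07, the opposite sign. That value rests on 1 chow array, the ST array of L52 that carried the hypothalamus markers. With the 3 arrays left out together, that of L52 among them, Pcdhb9 rose by 0.79 (limma adjusted p 0.0239). Without the ST array of L58, O52, O56 or O58 its adjusted p was 0.0613, 0.0887, 0.0548 and 0.0554. Without array weights Pcdhb9 rose by 0.50 and was not called (adjusted p 0.0941). With 75th-percentile scaling Pcdhb9 was not called (0.51, adjusted p 0.163) and Pcdh1, lower, was the only call. Of the 31395 rows, 911 were higher and 3202 lower there.

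The next 2 members in ST missed the threshold. Pcdh1 read 9.26, 9.19, 9.49 and 9.25 in the CM mice and 9.17, 9.76, 9.71 and 10.50 in the chow mice, a difference of -0.42 ± 0.13 (limma adjusted p 0.0506). The sign turned under the slide block (0.06, adjusted p 1) and on slide 1 (0.13), where L52 was the only chow array. With the 3 arrays left out together Pcdh1 differed by -0.53 (adjusted p 0.0304). Pcdhga10 read 6.78, 6.74, 6.57 and 6.77 against 6.70, 6.49, 5.89 and 6.29, a difference of 0.51 ± 0.16 (adjusted p 0.0519), which was -0.00261 under the slide block (adjusted p 1) and 0.01 on slide 1. In both the groups overlapped. The ST count was 0 without the array of L58 in ST or that of O52 or O58 in ST. It was 2 without the ST array of L52 or O56 or the FC array of L56, O54 or O58, 3 without the ST array of L56 or the FC array of L52, and 4 without the ST array of L54. In the slide-blocked fit 0 members and 0% of all rows were called. With the 3 arrays left out together 2 were (Pcdhb9 and Pcdh1), beside 11.1% of all rows.

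In HT, limma called 0 members between diets, beside 0.43% of all rows, and 6 members had an unadjusted p under 0.05. The smallest p was for Pcdh11x (AK031276), with levels of 8.29, 8.39, 8.44 and 8.43 in the CM mice and 8.62, 8.64, 8.86 and 8.39 in the chow mice. The 4 CM arrays lay below 3 of the 4 chow arrays, and the difference was -0.30 ± 0.08 (adjusted p 0.114). The chow exception, L58, was the chow array that shared slide 2 with the CM arrays, and on that slide the difference was -0.00535. Pcdhb13 read 6.81, 6.57, 6.68 and 6.73 against 6.36, 6.40, 6.52 and 6.28, apart, with 0.25 ± 0.09 (adjusted p 0.229) and 0.42 on slide 2. Pcdhga9 read 12.54, 12.58, 12.55 and 12.57 against 12.88, 12.92, 12.67 and 12.62, apart, with -0.20 ± 0.08 (adjusted p 0.259) and -0.06 on slide 2. Without the HT array of L58 the count was 1. Of 7 neuron marker rows, 1 was lower with diet in ST (Snap25 by -0.49, adjusted p 0.00895), beside 6.37% of all rows. In HT 1 was lower (Rbfox3 by -0.40, adjusted p 0.0444), beside 0.306% of all rows, and their part was not tested.

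**Figure D5:**
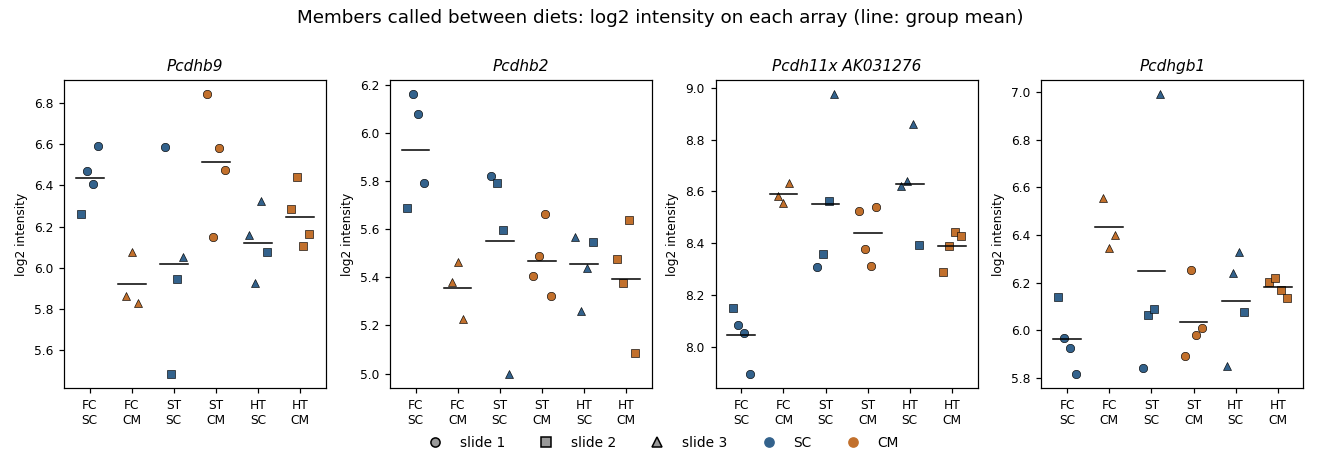
Log2 intensity of Pcdhb9, Pcdhb2, Pcdh11x (AK031276) and Pcdhgb1 on each array, by region and diet, with the marker shape giving the slide, the colour the diet and the line the group mean. In FC the 3 CM arrays lay apart from the 4 chow arrays for all 4 rows, and the 2 diets sat on different slides.

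The diet effect was also compared between regions. It differed between FC and ST for 3 members with a larger value in FC and 5 with a smaller one, beside 16% and 14.2% of all rows. Between FC and HT the counts were 3 and 3, beside 12.3% and 7.66% of all rows. With 75th-percentile scaling the splits were 5 and 0, and 4 and 0, beside 7146 and 3162, and 6125 and 1354, of the 31395 rows. Between ST and HT limma called 0 members and 0% of all rows, with 4 members at an unadjusted p under 0.05. With the slide block 0 members and 0% of all rows were called in all 3 comparisons. Without array weights 4 members were called between FC and ST and 2 between FC and HT. With array weights, no slide block and no 75th-percentile scaling, Pcdhb9 showed the largest contrast. Its FC effect minus ST effect was -1.14 ± 0.25 (limma adjusted p 0.00212), and -0.40 under the slide block. With 75th-percentile scaling it was -0.80 (adjusted p 0.0657) and not called. Larger there were Pcdhgb1 (1.39), Pcdhac1 (1.18) and Pcdhb1 (1.85, with only a bound in FC of chow mice). Under the slide block Pcdh15 (NM_001142746) was larger, at 1.01. The other 7 called between FC and ST were Pcdh1 (0.66), Pcdh11x (AK031276, 0.65), Pcdhgb1 (0.62), Pcdhb13 (-0.73), Pcdhb18 (-0.44), Pcdhga5 (-0.81) and Pcdhga10 (-0.91), with adjusted p from 0.00296 to 0.0465. Under the slide block the signs of Pcdh1 (-0.62), Pcdh11x (-0.11), Pcdhgb1 (-0.39) and Pcdhb18 (0.33) turned. Pcdhga5, Pcdhga10 and Pcdhb13 kept their sign there, at -0.02, -0.08 and -0.63. Those called between FC and HT were Pcdh11x (AK031276, 0.85), Pcdhac1 (0.59), Pcdhgb1 (0.49), Pcdha11 (-0.56), Pcdhb2 (-0.58) and Pcdhb13 (-0.72), with adjusted p from 0.000196 to 0.0437, and the signs of Pcdh11x (-0.08), Pcdhgb1 (-0.69) and Pcdhb2 (0.35) turned under the slide block. Pcdhac1, Pcdha11 and Pcdhb13 kept their sign between FC and HT, with slide-blocked values of 0.10, -0.42 and -0.83. The FC and HT count of 6 was 3 without the HT array of L54, L56 or O54. The ST and HT count was 2 without the ST array of L54.

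Genes that act on or with protocadherins were taken from lists. Of 20 chromatin regulators of the clusters (cohesin, Ctcf, methyltransferases and related genes), 19 had a row, with 21 rows in all. On chow 8 of the 21 rows were lower and 0 higher in HT than in FC, beside 20.4% and 22.8% of all rows, with a median of -0.21 against 0.02 over all rows. Pds5a, a cohesin regulator, was lower by -1.10 (limma adjusted p 2.44e-07), and Zfp143 by -0.52 (adjusted p 0.00361). Between ST and FC 3 were lower, beside 7.22% of all rows, among them Pds5a by -0.71 (adjusted p 0.00186) and the methyltransferase Dnmt1 by -0.48 (adjusted p 0.00867). Between HT and ST 5 were lower, beside 10.8%, among them Pds5b by -0.57 (adjusted p 0.0315) and Dnmt3a by -0.42 (adjusted p 0.00912). In CM mice 7 rows were higher and 4 lower in HT than in FC, beside 29.5% and 28.2% of all rows. Between ST and FC of these mice 11 were higher and 0 lower in ST, beside 30.5% and 30.1%. Each region of the CM mice lay on a slide of its own, and a difference between the diets was not tested for this list. The slide-blocked count between HT and FC on chow was 2 lower, beside 2296 of the 31395 rows. With diet, 3 rows were lower in FC, beside 13.2% of all rows, among them Trim28 by -0.64 (adjusted p 0.000764) and Rest by -0.41 (adjusted p 0.0158). In ST 3 were higher, beside 3.45%, among them Wapal by 0.51 (adjusted p 0.0158) and Smc1a by 0.40 (adjusted p 0.0175).

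Of 24 binding partners and signalling genes of protocadherins, 23 had a row, with 27 rows. On chow 15 rows were lower and 2 higher in HT than in FC, beside 20.4% and 22.8% of all rows, with a median of -0.36. Against ST 11 were lower and 1 higher in HT, beside 10.8% and 10.67%. The kinase gene Ptk2b, whose protein is bound by the constant domains of clustered protocadherins, was lower in HT than in FC by -2.11 (limma adjusted p 4.76e-06) and -1.67 (adjusted p 1.01e-05) in its 2 rows. Ret and Robo1 were higher, by 3.89 (adjusted p 8.08e-07) and 0.65 (adjusted p 0.000601). Between ST and FC 3 rows were lower and 1 higher, beside 7.22% and 7.71% of all rows, with Prkca at -0.81 (adjusted p 0.00189) and Ptk2 at -0.56 (adjusted p 0.0236), and Ppp1ca was higher by 0.36 (adjusted p 0.0175). With diet in FC, 3 rows were higher and 2 lower, beside 15.4% and 13.2%, with Cyfip2 higher by 0.30 (adjusted p 0.0304) and Cyfip1 by 0.25 (adjusted p 0.0311). The 2 lower rows were Fyn by -0.49 (adjusted p 0.00109) and Axin1 by -0.34 (adjusted p 0.00399). In ST, where 3.45% of all rows were higher with diet, Fzd3 and Ppp1ca were higher by 0.46 (adjusted p 0.0105) and 0.30 (adjusted p 0.0284).

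The classical cadherins and catenins, relatives that link to the actin cytoskeleton, had rows for all 22 genes, 24 in all. On chow 1 was higher and 7 lower in HT than in FC, beside 22.8% and 20.4% of all rows, led by Cdh9 at -1.79 (limma adjusted p 5.78e-07) and Cdh12 at -0.79 (adjusted p 0.00345), with Ctnnb1 higher by 0.54 (adjusted p 7.24e-05). Between ST and FC 1 was higher (Ctnna1, 0.50, adjusted p 0.0204) and 7 were lower, beside 7.71% and 7.22%, led by Cdh12 at -1.003 (adjusted p 0.00782). Between HT and ST 3 were higher and 2 lower, beside 10.67% and 10.8%, with Cdh7 at 0.61 (adjusted p 0.00225), Ctnnb1 at 0.48 (adjusted p 0.000881), Ctnnd2 at -0.45 (adjusted p 0.00038) and Cdh9 at -2.14 (adjusted p 2.65e-07). With diet in FC 1 was higher and 2 lower, beside 15.4% and 13.2%. Cdh11 was higher by 0.51 (adjusted p 0.0105), and Cdh20 and Cdh13 were lower by -0.82 (adjusted p 0.00126) and -0.43 (adjusted p 0.0174). Under the slide block 0 rows of the 3 lists were called between diets, where limma called 0% of all rows.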

How the data were processed

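The authors deposited Agilent scanner files with intensity values per spot, and a table of log2 values that the authors made with limma by normexp background correction, quantile normalization, a filter on dim probes and averaging of probes. Both hold 23 arrays, and the number of columns of per-sample values not used is 0. The deposited log2 values were rebuilt from the scanner files to within 5e-09. Probes stayed in when they exceeded the negative controls' 95th percentile by a factor of 1.1 on 4 or more arrays, and values were averaged per SystematicName. The deposited log2 values were fitted in limma 3.58.1 (R 4.3.3, statmod 1.5.0, data.table, version 1.17.8) with a mean for each of 6 groups, weighted arrays and a random block for mouse. The labels pair the regions by mouse, and the within-mouse correlation was -0.0398. P-values were adjusted by Benjamini-Hochberg over 31395 rows. Only the fit was tested on simulated log2 values, which held no slide effect. Slides were read from the scanner labels, and depth was taken as the share of spots well above background, 61.4% to 71.3% per array. The number of arrays per group limits the precision.

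Named were every non-clustered member, in full at 2-fold or more between regions on chow, and the C-type isoforms. From each cluster and regional comparison, up to 2 rises and 2 falls without overlap were named, and per diet comparison 3 rises and 3 falls, or the 3 smallest p. Other members named were chosen after their values were seen. The members and lists were chosen with earlier results of these data known. For a probe not well above background on any array of a group, the fold is a lower bound against the lowest signal well above background. Alternatives tried were the slide as a block, no replicate block, no or REML array weights, 75th-percentile scaling of the processed signal, an offset of 50, other filters, 1 value per probe, leaving out arrays, only the compared groups, the study's thresholds, and, for regional comparisons, the CM mice.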

Additional observations from a re-analysis of the deposited data

Results flagged for a closer look

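Among the 20 members tested for a sample far from the others, in 100 sets of arrays, 1 array was marked: the HT array of chow mouse L58 for Pcdh10 (NM_011043), at 9.01, where the nearest of the other 3 arrays read 9.40. The gap was 0.865 of the group's range. Chance marks about 1 in 20 groups, so 1 in 100 is below that rate.

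Diet effects that differed between regions in limma were also marked, among the same 20 members only. Pcdhb18 and Pcdhga5, called between FC and ST above, were not among the 20. The FC effect minus the ST effect was 0.66 for Pcdh1 (adjusted p 0.0101), 0.65 for Pcdh11x (AK031276; adjusted p 0.00296) and 0.62 for Pcdhgb1 (adjusted p 0.0182). It was -0.73 for Pcdhb13 (adjusted p 0.00329), -1.14 for Pcdhb9 (adjusted p 0.00212) and -0.91 for Pcdhga10 (adjusted p 0.00476). The FC effect minus the HT effect was 0.85 for Pcdh11x (AK031276; adjusted p 0.000196), 0.59 for Pcdhac1 (adjusted p 0.0378) and 0.49 for Pcdhgb1 (adjusted p 0.0437). It was -0.56 for Pcdha11 (adjusted p 0.00887), -0.72 for Pcdhb13 (adjusted p 0.00205) and -0.58 for Pcdhb2 (adjusted p 0.0391). Blocked by slide, none of these 12 was called in limma, and neither was any other of the 31395 rows. The sign turned in 6 of them, to -0.62 for Pcdh1, -0.11 for Pcdh11x and -0.39 for Pcdhgb1 in FC minus ST, and to -0.08 for Pcdh11x, -0.69 for Pcdhgb1 and 0.35 for Pcdhb2 in FC minus HT. No slide held FC arrays of both diets, so the part of the slide in these differences cannot be told apart from that of diet.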

How the results depend on the processing

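With the slide as a block, the members called were 12 in place of 22 between HT and FC on chow. For CM mice they were 1 in place of 29 between ST and FC, 5 in place of 23 between HT and FC, and 13 in place of 31 between HT and ST. With that block they were 0 in place of 12 for diet in FC, 0 in place of 1 for diet in ST, 0 in place of 8 for the diet effect in FC minus ST and 0 in place of 6 for FC minus HT. It reversed Pcdh11x (AK031276) to -0.00739, Pcdhb2 to 0.0104 and Pcdhgb1 to -0.24 for diet in FC. The cause was not tested.

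Without array weights the count was 13 between ST and FC on chow, 19 for ST and FC and 15 for HT and FC in the CM mice, 4 for diet in FC, 0 for diet in ST, 4 for FC minus ST and 2 for FC minus HT. With 75th-percentile scaling it was 5 for diet in FC and 5 for FC minus ST. Without the 3 arrays with markers of another tissue, a choice made after seeing the data, it was 2 between ST and FC on chow, 7 and 2 for diet in FC and ST, and 3 for FC minus HT. Fitting only the compared groups gave 1 between ST and FC on chow and 0 for diet in ST. The study's thresholds gave 0 for ST and FC on chow and in CM mice, 14 and 10 for HT and FC, 11 for HT and ST in CM mice, 0 for both diet counts, and 1 and 3 for FC minus ST and FC minus HT. In CM mice ST and FC gave 29 where chow gave 6, and HT and ST gave 31 where chow gave 13. For diet in ST, REML weights, an offset of 50 and the filter on spots well above background gave 3 each, no filter gave 0 and 1 value per probe gave 4. No filter also gave 3 for FC minus HT. No share of all rows is given for the counts with only the compared groups, REML weights, the offset, other filters or 1 value per probe. Nor is one given for those without the mouse block below, so these counts cannot be set against the whole table. The cause was not tested, except that the thresholds are stricter by construction. The alternatives for the CM and region-difference counts were chosen after seeing the data.

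Without the mouse as a replicate block the diet count in ST was 2, and no other of the 12 counts left 1.5 times its main value. These counts were 6, 23 and 14 for ST and FC, HT and FC, and HT and ST on chow, 29, 23 and 32 in the CM mice, 12 and 0 for diet in FC and HT, and 8, 7 and 0 for FC minus ST, FC minus HT and ST minus HT. Each of the 27 named member results kept its direction and its call without this block.

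Leaving out each array in turn gave 1 to 11 between ST and FC, 19 to 23 between HT and FC and 9 to 16 between HT and ST on chow. Among CM mice the ranges were 25 to 31, 20 to 23 and 30 to 32. For diet they were 6 to 13 in FC, 0 to 4 in ST and 0 to 1 in HT, and for the differences of diet effects 7 to 10, 3 to 8 and 0 to 2. Of 621 named member results without an array, 608 kept their call and 13 kept the direction only. Across the 27 named results, the slide block kept 15 calls and weakened 9 with the same direction. Low signal limits Pcdhb1, Pcdhb11 and Pcdhac1.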
